A study of Mus musculus with 8 samples.

Results

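The genes described here were 51 regulators of alternative splicing, chosen by name: 21 neuronal and developmental RNA-binding regulators, 14 hnRNP genes, 10 SR protein genes and 6 SR-related and Tra2 genes. Of these, 49 had probe sets that the platform annotation gave to 1 gene symbol, current or older, and all 49 were tested among 12960 genes. Rbfox3 had none. Tra2b had none either, because 25 probe sets carried the older symbol Sfrs10, which RefSeq lists for both Srsf2 and Tra2b. These Sfrs10 probe sets were kept apart. Srsf2 had 15 probe sets without them, and its older symbol in the annotation was Sfrs2. Of 1183 probe sets annotated to the 49 genes, 1105 had a mean signal at or above the filter of 6.84, the median over all probe sets, and 78 did not.

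Cortical RNA of mouse embryos, taken on embryonic day 18.5 from animals of a mixed CD1 and C57BL/6 background, was measured on Affymetrix exon arrays with 1 array per embryo. The groups were 4 wild type embryos and 4 Ptbp2 knockout embryos. How the knockout allele was made, and whether it was lost in every cell, is not given in the sources used here. Values are log2 signals, so a difference of 1 is a doubling of signal. P-values for level measure the spread between embryos, and those for usage are described with their models.

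Splicing regulators bind short motifs in a transcript and change which exons are joined. Neuronal regulators such as the Nova, Rbfox, Elavl and Celf proteins and Srrm4 switch exons as neurons mature; hnRNP proteins often act as repressors; SR proteins, with arginine- and serine-rich domains, bind exonic enhancers and recruit the spliceosome. Many of these genes also regulate each other and themselves. They do so through poison exons, which bring in a premature stop codon and send the transcript to nonsense-mediated decay. Ptbp2, the neuronal polypyrimidine tract binding protein, is itself a repressor of exons.

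Ptbp2 was compared first as a check of the labels. Its gene value, the median over its probe sets, was 11.20 ± 0.14 (SD, n = 4) in the wild type arrays. In the knockout arrays it was 5.95 ± 0.34 (SD, n = 4), below the signal filter on each array (limma adjusted p = 1.7e-12), so no exact size of the fall is given. The array medians lay between 6.82 and 6.93. Of the marker lists, 8 tested cortical neuron markers averaged 10.83 to 11.12 in wild type and 10.81 to 10.93 in knockout, and 6 progenitor markers 9.53 to 9.74 and 9.63 to 9.72. Of the 8 neuronal markers 1 passed the test, Snap25, a synaptic fusion protein, which fell from 10.90 ± 0.20 to 10.06 ± 0.16 (SD, n = 4; limma adjusted p = 0.0048). All 4 striatal markers (Drd1, Penk, Tac1 and Ppp1r1b) were lower in knockout, with list means of 9.14 to 9.50 in wild type and 8.67 to 8.96 in knockout that did not overlap. None of the 4 passed the adjusted threshold. The 2 tested microglial markers, Csf1r and Cd68, averaged 7.73 to 7.91 and 7.96 to 8.16. The difference lay mostly in Cd68, at 0.35 (limma adjusted p = 0.421), against 0.056 for Csf1r (limma adjusted p = 0.972). All 5 oligodendrocyte lineage markers were lower in knockout, without a call. Their means of 8.503 to 8.760 in wild type and 8.374 to 8.502 in knockout almost touched. Of the 5, only Olig2 separated the groups on its own. Knockout 2 stood apart in the 4 choroid plexus markers, at 7.69 against 9.14 to 9.67 on the other knockout arrays, and its Ttr read 9.36 against 13.18 to 13.38 on the other 7 arrays. The part of these lists in the results below was not tested, and in whole tissue fewer cells of a type and less RNA per cell cannot be told apart.

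No member passed the test in level. At an adjusted p under 0.05 limma called 0 of the 49 genes, against 15 of all 12960 genes (0.116%), and at an unadjusted p under 0.05 it called 0, against 6.49% of all genes. The median log2 fold change of the 49 was -0.0088, and that of all genes 0.0027. A log2 difference under 0.1 in either direction was found for 38 of the 49 (77.6%), against 61.8% of all genes. These shares were not matched for signal or for probe sets per gene. The 49 members had 1105 retained probe sets, and the 12959 genes tested for usage had 195604. The smallest p was 0.0546, for Srsf6. With the median and the main signal filter, no member's 95% interval reached beyond a 1.39-fold difference. Changes inside a gene's own interval are not excluded. The intervals do not cover the choice of filter or summary, so larger changes are not excluded under other choices. With other signal filters the Rsrc1 log2 fold change was 0.53 or -0.45, outside its main interval of -0.414 to 0.078.

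**Figure D1:**
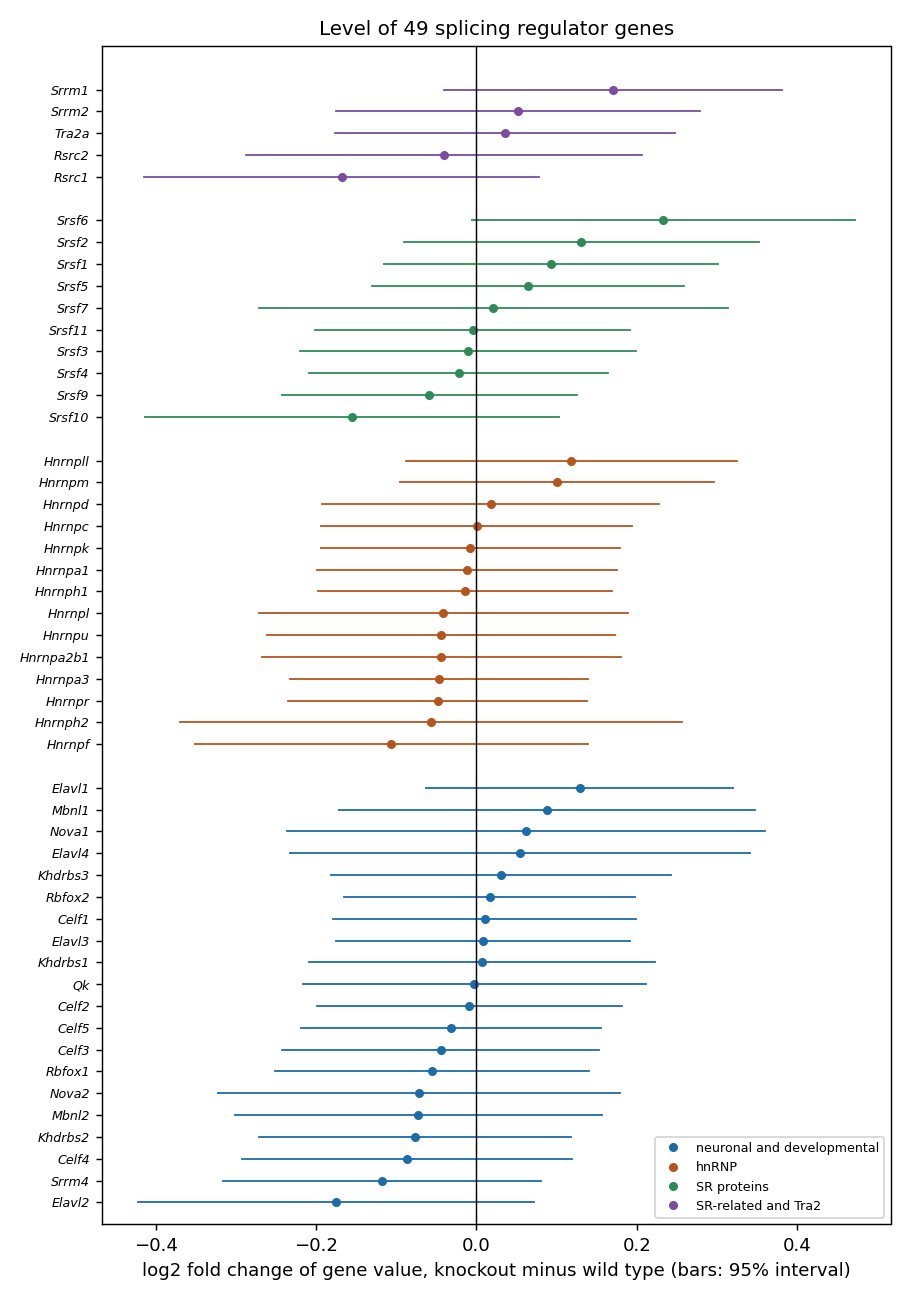
Log2 fold change of the gene value, knockout minus wild type, for the 49 tested genes in 4 families; points are estimates from 4 arrays a group and bars are 95% intervals from limma. Every interval includes 0, and the points lie between -0.175 (Elavl2) and 0.233 (Srsf6).

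Among the 20 tested neuronal and developmental regulators, 9 were higher and 11 lower in knockout, between -0.175 and 0.128. The lowest was Elavl2, a neuronal Hu protein. Its wild type arrays read 10.76, 10.27, 10.32 and 10.33 and its knockout arrays 10.22, 10.19, 10.14 and 10.44 (limma adjusted p = 0.867). Wild type 1 was far above the other arrays, and without it the difference was -0.061. With the mean over probe sets in place of the median it was 0.0033. The largest rise was that of Elavl1, the broadly expressed Hu protein HuR, at 10.94, 10.70, 10.94 and 10.79 in wild type and 10.97, 10.98, 10.96 and 10.99 in knockout. Each knockout array exceeded each wild type array, but the log2 fold change of 0.13 (SE 0.090) did not pass the adjusted threshold (limma adjusted p = 0.883) and was -0.028 with the signal filter at the 75th percentile. Elavl1 was the 1 member of 49 without overlap, against 3.65% of all genes.

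The remaining neuronal regulators lay closer together. Rbfox1 and Rbfox2, which bind the same motif in neurons, differed by -0.055 and 0.017, and Rbfox1 by 0.043 with the mean over probe sets. Nova1 and Nova2, the neuronal KH-domain regulators, differed by 0.062 and -0.072. The 5 Celf genes tested differed by between -0.086 (Celf4) and 0.011 (Celf1). Mbnl1 and Mbnl2, the muscleblind proteins of developmental splicing switches, differed by 0.088 and -0.073. Srrm4, an SR-related activator of neuronal microexons, read 9.33, 9.32, 9.47 and 9.34 in wild type and 9.28, 9.14, 9.41 and 9.16 in knockout. Its groups overlapped and its adjusted p was 0.905 by limma. Averaged over its probe sets in place of the median, Srrm4 read 9.30 ± 0.049 (SD, n = 4) and 9.17 ± 0.040 (SD, n = 4) without overlap, still short of the threshold (limma adjusted p = 0.730), and 17 of its 20 probe sets were lower.

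The 14 hnRNP genes had a median of -0.028, with 4 higher and 10 lower. The extremes were Hnrnpf, a G-tract binding protein, at -0.11 (SE 0.12, limma adjusted p = 0.943), and Hnrnpll, a paralog of Hnrnpl, at 0.12 (SE 0.097, limma adjusted p = 0.914). Hnrnpf read 11.39, 11.12, 11.03 and 11.28 in wild type and 11.05, 11.32, 10.84 and 11.20 in knockout. Hnrnpll read 9.60, 9.43, 9.32 and 9.56 in wild type and 9.55, 9.66, 9.46 and 9.71 in knockout. Both pairs of groups overlapped. The hnRNP genes Hnrnpa1, Hnrnpc, Hnrnpk and Hnrnph1 differed by less than 0.02 in either direction. Hnrnpa1 had 7 retained probe sets and Hnrnpa3 had 80.

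The 10 SR protein genes had a median of 0.0081, with 5 higher and 5 lower. Srsf6 read 10.09, 10.37, 10.10 and 10.48 in wild type and 10.43, 10.33, 10.52 and 10.69 in knockout. The groups overlapped, and the log2 fold change was 0.23 (SE 0.11, limma adjusted p = 0.767). Srsf10, an SR protein known as a splicing repressor, was lowest at -0.16 (SE 0.12, limma adjusted p = 0.905). It read 9.92, 9.64, 9.65 and 9.68 in wild type and 9.61, 9.80, 9.20 and 9.65 in knockout. Wild type 1 was the highest and knockout 3 the lowest of its 8 arrays, and without knockout 3 the difference was -0.034. Srsf1, Srsf2, Srsf3, Srsf4, Srsf5, Srsf7, Srsf9 and Srsf11 lay between -0.059 and 0.13. The ambiguous Sfrs10 probe sets, 22 of them retained, read 11.02 ± 0.086 (SD, n = 4) in wild type and 11.03 ± 0.14 (SD, n = 4) in knockout.

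Of the 5 tested SR-related and Tra2 genes, 3 were higher and 2 lower, with a median of 0.036. Srrm1, a spliceosome coactivator with arginine- and serine-rich repeats, read 9.996, 10.07, 10.34 and 10.07 in wild type and 10.37, 10.14, 10.30 and 10.34 in knockout (log2 fold change 0.17, SE 0.099, limma adjusted p = 0.830). Rsrc1, an SR-related protein that takes part in splicing, read 8.87, 8.75, 8.31 and 8.60 in wild type and 8.56, 8.37, 8.38 and 8.55 in knockout (log2 fold change -0.17, SE 0.12, limma adjusted p = 0.880). The groups overlapped for both genes. The direction of Rsrc1 turned with the summary: the mean over the same probe sets gave 0.083, and the median over all 31 of its probe sets, with no signal filter, gave 0.53 (limma adjusted p = 0.262). A filter at the 75th percentile moved it the other way, to -0.45 (limma adjusted p = 0.327). Rsrc2, an SR-related coiled-coil protein, also turned, from -0.040 with the median to 0.20 with the mean (9.78 ± 0.082 against 9.98 ± 0.092, SD, n = 4; SE 0.074, limma adjusted p = 0.506). The Rsrc2 means did not overlap between the groups, and 21 of its 26 probe sets were higher in knockout. With the mean, limma again called 0 of the 49 genes, and 3 did not overlap, Rsrc2, Srrm4 and Hnrnpll (6.12%), against 4.40% of all genes.

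Each probe set was then set against the others of its gene, which asks whether part of a transcript is used differently. The diffSplice model takes a shared spread from all probe sets of a gene. It treats them as independent, although they share their RNA, so its p-values do not measure a probe set's own spread between embryos. With limma diffSplice, 8 of the 1105 member probe sets changed usage (0.724%), against 414 of 195604 over all genes (0.212%). Of the 8, 5 were raised (0.0879% over all genes) and 3 lowered (0.124%). They lay in 4 of the 49 genes, Rsrc1, Rbfox1, Rsrc2 and Srrm1, where 2.81% of all genes had at least 1 such probe set. Rsrc1 held 4 of them, which 3 of all genes did (0.0231%), and without it 4 of 1086 remained (0.368%). The SR-related and Tra2 genes held 7 of the 8, among 136 probe sets, and the neuronal regulators 1 among 392. No probe set of the hnRNP genes (379) or of the SR protein genes (198) passed by diffSplice or by the splicing index described next. At an unadjusted p under 0.05 the splicing index gave 15 hnRNP and 13 SR probe sets, where 5.27% of all probe sets had one.

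The splicing index, a probe set minus its gene value on each array, gives each probe set its own spread. By that model 1 member probe set passed, in Rsrc1, against 17 over all genes (0.00869%). Groups did not overlap in the splicing index for 41 of the 1105 (3.71%), against 2.92% of all probe sets. The number of diffSplice calls also moved with single arrays: it was 3 without wild type 1, 3 without knockout 1, 5 without wild type 4 and 14 without knockout 4. Of the 8 calls, 3 held in each of the 8 fits that left out 1 array, the first pair of Rsrc1 probe sets given below and that of Rbfox1.

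**Figure D2:**
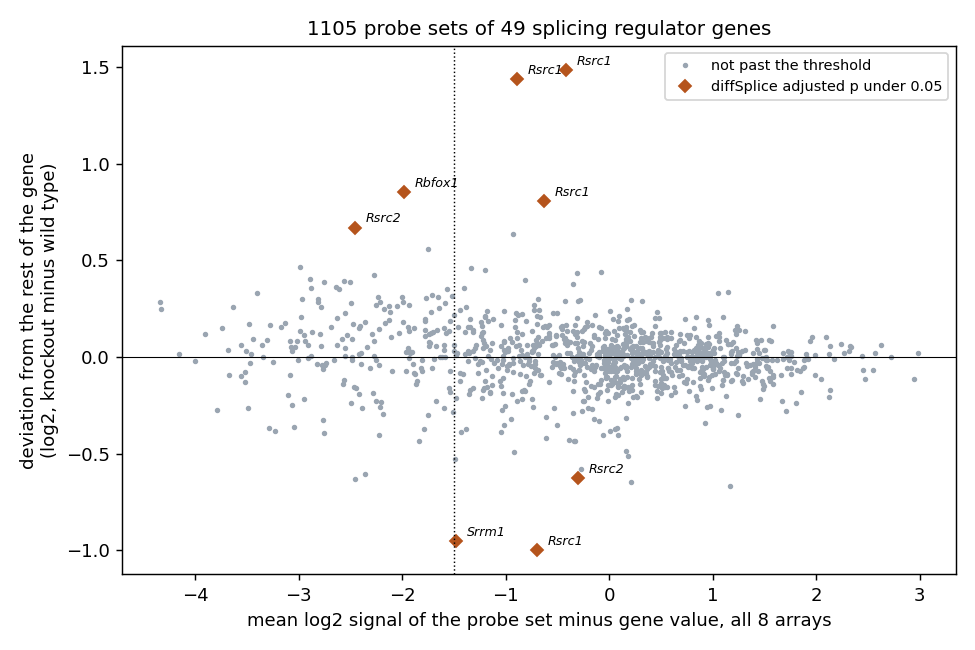
Each of 1105 probe sets of the 49 genes, by its mean log2 signal relative to its gene value over 8 arrays (horizontal) and its deviation from the rest of its gene, knockout minus wild type, in log2 units (vertical). The 8 probe sets past the diffSplice threshold are marked with their gene, the dotted line is 1.5 below the gene value, and 1088 probe sets deviate by less than 0.5.

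Rsrc1 had the largest deviations. Probe set 4628038 read 7.24, 7.67, 7.14 and 7.52 in wild type and 8.84, 8.62, 9.09 and 8.96 in knockout. Every knockout array was higher than every wild type array, while the gene value was not. It rose by 1.48 relative to the rest of the gene (SE 0.20, diffSplice adjusted p = 1.5e-07). The splicing index of this probe set rose by 1.66 (limma adjusted p = 0.020), but kept its call in only 1 of the 8 fits without 1 array (adjusted p 0.045 to 0.121). With no signal filter, where the gene value itself rose, the splicing index rose by 0.96 and did not pass. Nor did it pass with the replicate number as a block, or without wild type 3 and knockout 3 together. The level of this probe set rose by 1.49 (SE 0.15, limma adjusted p = 0.0027).

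Probe set 4945351 of Rsrc1 moved the same way. It read 6.79, 6.98, 6.82 and 7.15 in wild type, close to the signal filter, and 8.75, 7.95, 8.64 and 8.19 in knockout. No arrays overlapped, and the deviation was 1.44 (SE 0.20, diffSplice adjusted p = 4.0e-07; splicing index adjusted p = 0.095). Its level rose by 1.45 (limma adjusted p = 0.011), a call that was lost without wild type 2 (adjusted p up to 0.064 over the fits without 1 array) and without wild type 3. These were the only member probe sets called in level, 2 of 1105 (0.181%), against 0.0921% of all retained probe sets. Groups did not overlap in level for 42 member probe sets (3.80%), against 4.24% of all retained ones. Of the 42, 33 were higher in knockout, a larger share than the 8538 of 13248 among all retained probe sets. The 33 were gathered in a few genes: Rsrc2 held 7, Rsrc1 4, Srsf11 4 and Srrm1 3. Probe sets of 1 gene share their RNA, so the 33 are not independent.

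The third raised probe set of Rsrc1, 4643015, read 7.30, 7.62, 7.57 and 7.49 in wild type and 8.47, 8.17, 8.59 and 8.14 in knockout, again without overlap. Its deviation of 0.81 (SE 0.20) passed narrowly (diffSplice adjusted p = 0.048) and held in 2 of the 8 fits without 1 array, being lost without wild type 1, 2 or 4 or knockout 1, 2 or 3 (highest adjusted p 0.354). One probe set of the gene went down. It was 5121196, at 8.87, 7.78, 8.31 and 8.17 in wild type and 6.97, 7.41, 7.13 and 8.18 in knockout, with a deviation of -0.9995 (SE 0.20, diffSplice adjusted p = 0.0028). Knockout 4 lay within the wild type range. That call was lost without wild type 1 (adjusted p = 0.074) and without knockout 1 (adjusted p = 0.201).

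Other Rsrc1 probe sets, chosen after their values were seen, differed without overlap but did not pass. Probe set 5143529 read 7.27 ± 0.094 in wild type and 7.96 ± 0.10 in knockout (SD, n = 4; deviation 0.64, diffSplice adjusted p = 0.277). Probe set 5529739 read 9.99 ± 0.23 and 9.44 ± 0.25 (deviation -0.67, diffSplice adjusted p = 0.214). Probe set 4823308 read 5.23 ± 0.41 and 6.28 ± 0.27, below the filter in both groups, and was not tested. Rsrc1 had 31 probe sets, of which 12 were below the filter. Of the 19 retained, 9 were higher and 10 lower in knockout, so the gene value summarises probe sets that went opposite ways.

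**Figure D3:**
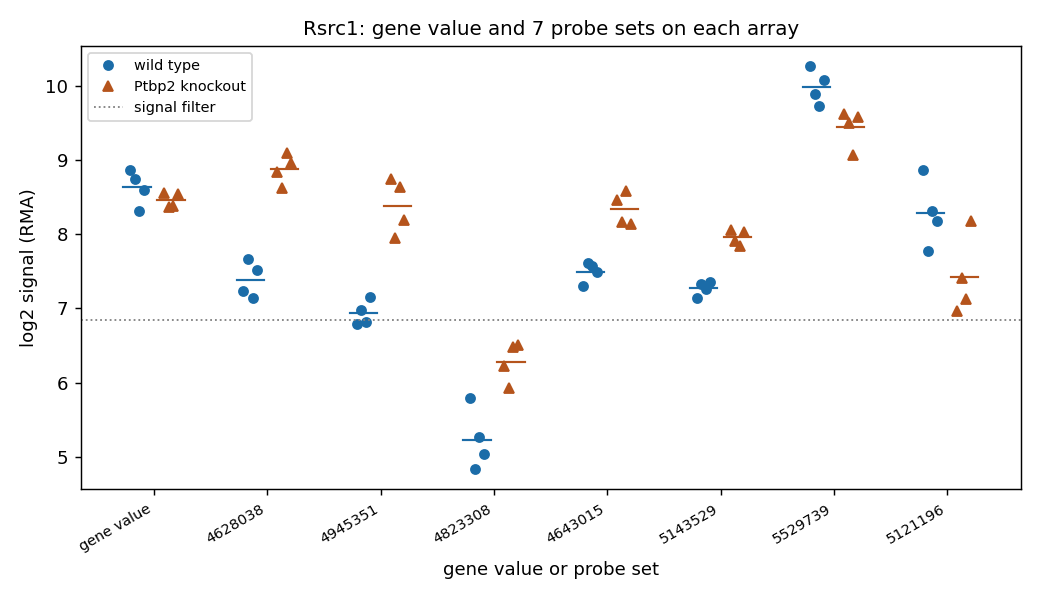
Log2 signal of the Rsrc1 gene value and of 7 Rsrc1 probe sets on each of 4 wild type arrays (circles) and 4 knockout arrays (triangles); short lines are group means and the dotted line is the signal filter of 6.84. The first 5 probe sets are higher on every knockout array and 5529739 is lower on every one, while the gene value and 5121196 overlap.

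Rbfox1, a neuronal regulator that binds near the exons it controls and is known to control its own transcripts, had 1 probe set with changed usage. Probe set 4851792 read 8.20, 8.08, 8.41 and 8.35 in wild type and 9.24, 8.78, 9.40 and 9.08 in knockout. Every knockout array was higher, and the deviation from the other 27 probe sets was 0.85 (SE 0.14, diffSplice adjusted p = 3.2e-05). All 8 fits without 1 array kept it, with deviations of 0.77 to 0.95. The splicing index rose by 0.92 and did not pass (limma adjusted p = 0.478), nor did its level (limma adjusted p = 0.074). The Rbfox1 gene value was 10.70 ± 0.11 (SD, n = 4) in wild type and 10.65 ± 0.076 (SD, n = 4) in knockout.

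Rsrc2 had 1 raised and 1 lowered probe set. The raised one, 5526066, read 7.06, 6.59, 7.06 and 7.18 in wild type and 8.01, 7.75, 7.37 and 8.13 in knockout. The groups did not overlap (deviation 0.67, SE 0.16, diffSplice adjusted p = 0.023), but the call held in only 3 of the 8 fits without 1 array, being lost without wild type 1, 2 or 4 or knockout 1 or 4 (highest adjusted p 0.339). The lowered one, 4442758, read 10.15, 9.55, 9.59 and 9.70 in wild type and 9.42, 9.70, 8.67 and 9.58 in knockout. Its groups overlapped, wild type 1 and knockout 3 being the highest and the lowest array (deviation -0.63, SE 0.16, diffSplice adjusted p = 0.047). Without knockout 3 the deviation was -0.41, and the call was lost there and without wild type 1, 2 or 4 or knockout 1.

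In Srrm1, probe set 4378185 was lowered. It read 9.65, 8.75, 9.23 and 9.06 in wild type and 8.04, 9.40, 6.98 and 8.72 in knockout. Knockout 2 exceeded 3 of the 4 wild type arrays and knockout 3 was far below the rest (deviation -0.95, SE 0.19, diffSplice adjusted p = 0.0020; splicing index adjusted p = 0.921). Without knockout 3 the deviation was -0.56 (adjusted p = 0.552), and the call was also lost without wild type 1 or knockout 1.

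The 2 remaining probe sets among the 10 with the smallest p did not pass and overlapped. They were 4490155 of Celf2, a neuronal CELF protein (deviation -0.58, diffSplice adjusted p = 0.053), and 5158957 of Hnrnpa3 (deviation -0.44, diffSplice adjusted p = 0.079). Celf2 4490155 read 10.99 ± 0.35 (SD, n = 4) in wild type and 10.47 ± 0.47 (SD, n = 4) in knockout, and Hnrnpa3 5158957 read 10.66 ± 0.43 and 10.21 ± 0.63. In both, as in the lowered probe sets of Srrm1 and Rsrc2, wild type 1 was the highest array and knockout 3 the lowest. Over all genes, the same was true of 133 of the 242 lowered calls, and 78 of the 242 had no overlap in level. Of the 172 raised calls, knockout 3 was the highest array in 60 and wild type 1 the lowest in 44, and 117 had no overlap. The part of these 2 arrays in the lowered calls was tested only by leaving each out.

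**Figure D4:**
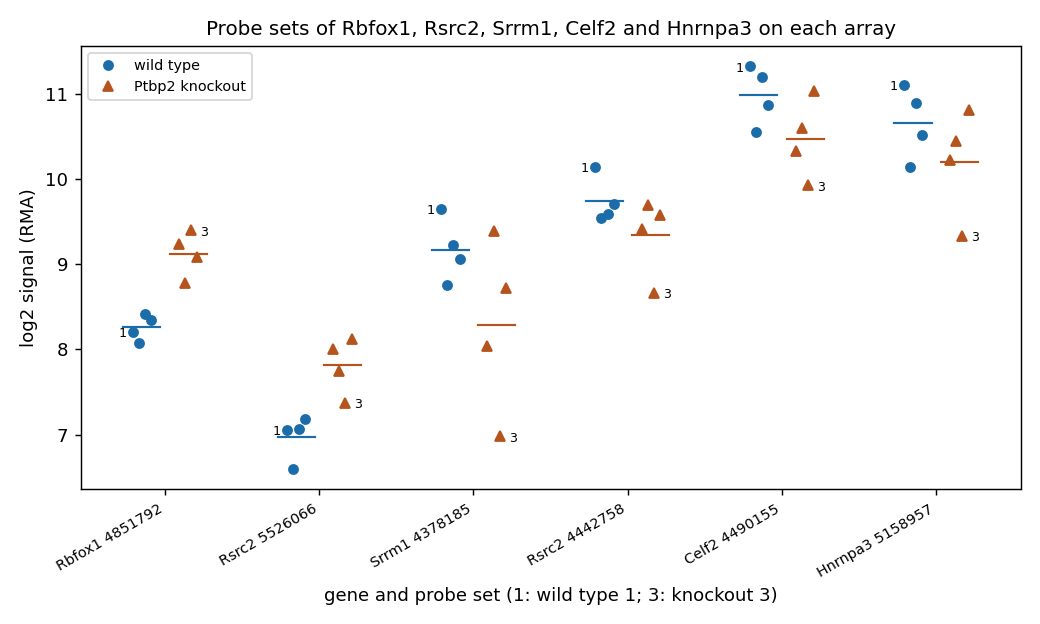
Log2 signal of 6 probe sets of Rbfox1, Rsrc2, Srrm1, Celf2 and Hnrnpa3 on each of 4 wild type arrays (circles) and 4 knockout arrays (triangles), with group means as short lines. The raised probe sets of Rbfox1 and Rsrc2 do not overlap between groups; in the 4 lowered ones the groups overlap, with wild type 1 (marked 1) highest and knockout 3 (marked 3) lowest.

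Cross-regulation through poison exons was asked of the probe sets with low signal. Probe set positions were not used here, so no probe set could be placed on a poison exon. A probe set was instead called low in signal where its mean lay at least 1.5 below its gene value, as a rarely included exon may, although a poorly binding probe or an untranscribed stretch reads low too. Of 193 such probe sets in the 49 genes, 2 changed usage by diffSplice (1.04%), against 1.25% of the 16305 such probe sets in all genes. The count thus lay near the background. Both were raised, Rbfox1 4851792 (-1.98 relative to its gene value) and Rsrc2 5526066 (-2.45).

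By family, 0 of 39 low-signal probe sets of the SR protein genes and 0 of 71 of the hnRNP genes changed usage by diffSplice. None of the 39 SR probe sets separated the groups in the splicing index either. Over the 193, the splicing index did not overlap between groups and was higher in knockout for 6 (3.11%), against 2.62% in all genes, and lower for 1 (0.518%), against 1.06%. Beside those of Rbfox1 and Rsrc2, the higher ones were 5203690 of Hnrnpa2b1, 5009004 and 5335237 of Hnrnpa3 and 4893394 of Srrm2, a large spliceosome scaffold protein. The lower one, 4442163 of Srrm2, read 7.53, 7.55, 7.64 and 7.58 in wild type and 7.37, 7.26, 7.07 and 7.25 in knockout. None of these 5 passed an adjusted threshold (smallest diffSplice adjusted p 0.502), and they were named after their values were seen.

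With no signal filter, 4 of 250 low-signal probe sets passed by diffSplice (1.60%), against 1.28% in all genes. Beside Rbfox1 4851792 they were 4671212 of Celf5, 4985477 of Elavl2 and 5557136 of Hnrnpa3, which lay below the filter. Celf5 4671212 read 5.34, 4.67, 5.83 and 5.41 in wild type and 6.68, 5.50, 6.79 and 6.48 in knockout. The groups of all 3 overlapped, and signals this low were not shown to be above background.

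The other genes of the splicing pathway were given by 3 lists of spliceosome proteins, SR kinases and further regulators, 95 genes of which 86 were tested. None passed in level by limma in the main fit, with 53 higher and 33 lower. An unadjusted p under 0.05 was found for 6 of the 86, where 6.49% of all genes had one. In usage, 6 of their 1854 probe sets passed by diffSplice (0.324%), against 0.212% of all probe sets. They lay 1 each in 6 genes, and 0 passed by the splicing index. Raised were 5069437 of Dhx9, an RNA helicase (0.76), 5599479 of Celf6 (0.72) and 5174860 of Sfpq, a paraspeckle protein (0.55). Lowered were 5522447 of Rbm25 (-1.22), 4340353 of Pcbp3 (-0.94) and 4453439 of Srpk1, an SR protein kinase (-0.86). In these 3 lowered probe sets the groups overlapped, with wild type 1 highest and knockout 3 lowest: on knockout 3 that of Rbm25 read 5.19, against 7.78 to 8.77 on the other knockout arrays, and that of Pcbp3 read 4.95, against 6.58 to 7.59. The 6 calls became 1 without knockout 1, 2 without knockout 3, 2 without wild type 1, and 11 without knockout 2 or without knockout 4. In Celf6 that probe set read 8.18 ± 0.22 and 8.23 ± 0.24 (SD, n = 4), so it stood out against a gene whose value was 8.67 ± 0.10 in wild type and 8.19 ± 0.20 in knockout. The Celf6 gene value had a log2 fold change of -0.47 (limma adjusted p = 0.178), and it passed with the mean in place of the median (-0.61, adjusted p = 0.0066). It also passed with the filter at the 75th percentile (-0.98, limma adjusted p = 0.00056) and with array weights (-0.45, limma adjusted p = 0.036). The Pcbp3 gene value fell without overlap between groups (-0.37, limma adjusted p = 0.226). With array weights it passed (-0.36, limma adjusted p = 0.036).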

How the data were processed

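RNA from 8 embryonic cortices was measured on exon arrays, 1 per embryo. The table the authors deposited holds a log2 signal for each probe set and array. The submitters' processing notes name the mm9 build, RMA and Affymetrix Expression Console, without versions or roles. RMA evens out the arrays' distributions and compresses low signals. Array number limits the precision.

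Of 625534 probe sets, 303629 had 1 symbol, 5892 several and 316013 none in the platform annotation; symbols were updated through RefSeq (GRCm38.p6). Probe sets at or above 6.84 were retained (312767). Genes with at least 4 were summarised by their median (12960 genes), and 195604 probe sets, Ptbp2 left out, were tested for usage. Fits used limma 3.58.1 in R 4.3.3 (lmFit, eBayes and diffSplice, with Benjamini-Hochberg over all features, 0.05). They were run on simulated arrays with independent noise for each probe set. That check does not cover array effects shared by the probe sets of a gene. Alternatives were each array left out, wild type 3 and knockout 3 left out together, the replicate number as a block, other filters, normalizations, weights and summaries.

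Named are Ptbp2, family extremes in level, members with an unadjusted p under 0.05 in level, probe sets called by any model, the 10 smallest diffSplice p, and other splicing genes past a threshold; further genes are examples of their families or marker lists. Members and lists were chosen with earlier results of these data known. No sequence is shown, since probe and exon sequences were not used here.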

Additional observations from a re-analysis of the deposited data

Results flagged for a closer look

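In 2 of 42 groups of 4 arrays examined, 1 array lay far from the other 3; chance alone gives about 1 in 20 groups. The level of Elavl2 was 10.76 in wild type 1 and 10.27 to 10.33 in the other wild type arrays. The level of Srsf10 was 9.92 in wild type 1 and 9.64 to 9.68 in the other wild type arrays. Without wild type 1, the log2 fold change was -0.061 for Elavl2 and -0.088 for Srsf10.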

How the results depend on the processing

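The count of members changed in level was 0 under every alternative run. The SR-related median (0.036) was -0.062 with array weights and -0.024 to 0.056 over the fits without 1 array. Array weights gave 21 member probe sets with changed usage (8 in the main setting), 11 of low signal (2), 5 changed in level (2), 2 other splicing genes changed in level (0) and 21 of their probe sets changed in usage (6). The filter at the 75th percentile gave 5 for usage, 1 for level, 0 for the splicing index (1), and for the other splicing genes 1 in level and 3 in usage. Of those 5 usage calls, 3 were among the 8 of the main setting, and none was in Rsrc1. The 4 Rsrc1 probe sets called in the main setting had means of 7.66 to 8.13. They lay below that filter of 8.55 and were not tested there. No filter gave 4 of low signal, 1 in level and 0 by the splicing index. The splicing index gave 1 call in place of 8. Robust eBayes with trend gave 4 in level and 2 by the splicing index. A threshold of 0.10 gave 5 in level, 2 by the splicing index and 10 for usage of the other splicing genes. The mean in place of the median gave 1 other splicing gene in level. Without wild type 3 and knockout 3 there was 1 call in level and 0 by the splicing index. Over the fits without 1 array, calls numbered 3 to 14 for usage, 1 to 5 of low signal, 1 to 3 in level, 0 to 1 by the splicing index and 1 to 11 for usage of the other splicing genes.

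Directions in level turned for Elavl1 (-0.028, 75th percentile), Elavl2 (0.0033, mean), Rbfox1 (0.043, mean; -0.085 to 0.00014 over the fits without 1 array), Rsrc1 (0.083, mean; 0.53, no filter; but -0.45 at the 75th percentile) and Rsrc2 (0.079, 75th percentile; 0.20, mean; -0.11 to 0.052 over the fits without 1 array, above 0 without knockout 1, 0.0099, and wild type 1). The cause was not tested.

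In deviations from the group means, same-numbered arrays correlated at 0.25, -0.0039, 0.033 and 0.17, and differently numbered ones at -0.30 to 0.19. This left a pairing unclear. The labels state none, so the numbers were not taken to pair the arrays. With the replicate number as a block, calls numbered 9 for usage, 1 in level, 0 by the splicing index and 0 for members in level. Signal over background limits probe sets near or below the filter.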

Other observations

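Probe sets of some members leaned to one side without a call in level. In Hnrnpll 25 of 28 retained probe sets were higher in knockout, in Srsf11, an SR protein, 20 of 29, with 4 of the 29 free of overlap between groups (13.8%, against 4.24% of all retained probe sets), and in Hnrnpk 27 of 35 were lower. Probe sets of 1 gene share their RNA and are not independent. Over all members 589 of 1105 probe sets were higher in knockout (53.3%), against 55.6% of all retained probe sets.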
